A study of Mus musculus with 12 samples.

Results

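The interferon-induced genes of refed mouse liver were followed as a group of 34 genes, among them the antiviral Ifit and Oas families, the interferon-inducible GTPases, the immunoproteasome subunits and the transcription factors that drive them. A gene belonged to the group when a row of the deposited value table carried its symbol, and no other, in the array's annotation. By that rule 29 of the 34 genes were measured, on 30 rows, of 19938 genes measured in all. Isg15, Igtp, Gbp2 and Gbp6 stood only in rows that list several genes and Ifi44 matched no row, so no value is given for these 5 genes. The livers came from male C57BL/6J mice, 6 of them wild type (WT) and 6 carrying the K289R knock-in allele of Lrh-1, in which a lysine of this nuclear receptor is replaced by arginine. Lrh-1 is the product of Nr5a2 and controls genes of bile acid synthesis, cholesterol handling and glucose use in hepatocytes. All 12 mice were fasted for 24 h, fed again for 6 h and killed at 8 am, so feeding state, sex and strain were shared by both groups and no fasted or freely fed mouse enters the comparison. Each array held the RNA of 1 liver, and no source used here gives the ages of the mice. The comparison made here is the level of the interferon-induced genes with and without this lysine, a known site of SUMO attachment.

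Interferons are secreted proteins that warn cells of infection. Type I interferons, such as interferon-beta, act through the receptor chains Ifnar1 and Ifnar2 and the kinases Jak1 and Tyk2, which lead to a complex with Stat2 and Irf9 that binds interferon-stimulated response elements (ISRE). Interferon-gamma, the type II interferon, acts through Ifngr1 and Ifngr2 and acts mainly at gamma-activated sites (GAS). Uninfected liver keeps a basal level of many of these genes, in hepatocytes as well as in Kupffer cells and endothelium.

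Promoter sequences are shown because the letters of both kinds of site can be read in them. RefSeq promoter windows of build GRCm38.p6, which run from 250 bases before to 50 bases after the gene start, matched 21 of the 29 measured genes by symbol. An ISRE-type match was taken as GAAA, any 2 bases and GAAA again on either strand, which reads TTTC, any 2 bases and TTTC on the other. A GAS-type match was taken as TTCNNNGAA, where N is any base, which reads the same on both strands. The ISRE-type match was found in 10 of the 21 genes (Bst2, Ddx58, Gbp3, Ifih1, Ifit1, Ifit3, Irgm1, Oas1a, Rsad2 and Stat2), against 3.99% of the 27025 genes with a window and 3.44% of the 32851 windows. The GAS-type match was found in 6 of the 21 genes (Bst2, Ifi35, Ifit2, Irf1, Oas1a and Psmb8), against 9.55% of genes and 8.30% of windows. Only Bst2 and Oas1a held both, and in Bst2 the matches overlap. The stretches below lie wholly before the gene start and are written 5′ to 3′ on the gene's strand, with the matches in capitals and all other bases in lower case.
Ifit1, antiviral RNA-binding protein, chr19:34640765-34640833, plus strand: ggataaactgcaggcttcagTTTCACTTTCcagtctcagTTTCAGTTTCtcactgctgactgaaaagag
Ifit3, its partner, chr19:34583353-34583436, plus strand: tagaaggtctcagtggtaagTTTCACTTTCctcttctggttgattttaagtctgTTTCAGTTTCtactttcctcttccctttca
Rsad2, viperin, chr12:26456543-26456592, minus strand: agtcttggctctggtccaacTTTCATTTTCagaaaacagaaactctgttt
Irgm1, immunity-related GTPase, chr11:48871421-48871470, minus strand: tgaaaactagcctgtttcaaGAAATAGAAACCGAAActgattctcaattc
Gbp3, guanylate-binding protein, chr3:142559979-142560034, plus strand: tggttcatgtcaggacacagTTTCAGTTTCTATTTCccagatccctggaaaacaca
Irf1, transcription factor, chr11:53769904-53769952, plus strand: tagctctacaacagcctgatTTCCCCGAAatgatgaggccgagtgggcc
Psmb8, immunoproteasome subunit, chr17:34198078-34198126, plus strand: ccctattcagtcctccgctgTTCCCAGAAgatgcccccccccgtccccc

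Ifit1 and Ifit3 each held 2 separate ISRE-type matches, at bases -104 to -95 and -85 to -76 from the gene start in Ifit1 and at -156 to -147 and -122 to -113 in Ifit3. The capitals of Irgm1 and Gbp3 hold 2 matches each that overlap by a shared block of 4 bases. The GAS-type matches of Irf1 and Psmb8 lay at -90 to -82 and -97 to -89. These are matches of letters in a fixed window, and binding was not measured. Some members are neighbours in the RefSeq gene order: Psmb9, Tap1 and Psmb8, then Ifit2 and Ifit3, then Oasl2 and Oasl1.

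**Figure D1:**
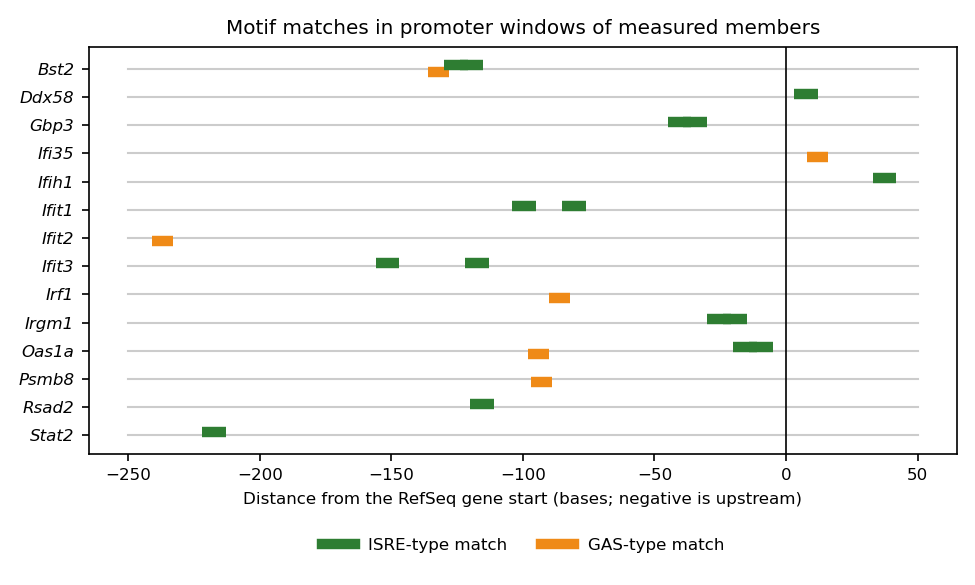
Positions of ISRE-type (green) and GAS-type (orange) letter matches in the RefSeq promoter windows of the measured genes that hold 1, drawn as distance in bases from the gene start (vertical line). The 2 matches of Ifit1 lie at -104 and -85, and the GAS-type match of Irf1 lies at -90.

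Values are the deposited linear probe-set intensities, in arbitrary units, and differences are K289R minus WT on the log2 scale from limma, with 95% intervals and p-values adjusted by Benjamini-Hochberg over all 19938 genes. The medians of the 12 arrays ranged from 26.8 to 29.2, and any 2 arrays correlated with Pearson's r of 0.979 to 0.991 over genes. Ifit2 and Mx1 lay below the array median on all 12 arrays, so their differences rest on low signal and are read with caution. The 6 hepatocyte markers measured summed to 29845 to 31655 in WT and to 29430 to 31518 in K289R livers. Nr5a2 itself was at 303 ± 27.1 in WT and 324 ± 18.4 in K289R mice (SD, n = 6 each), with a difference of 0.10 and an adjusted p of 0.582, which does not check the allele because the knock-in changes 1 amino acid. Transcripts of pancreatic acinar cells were far higher on K289R 1 and K289R 3, with summed intensities of 5479 and 8637 against 192 to 249.1 on the other 10 arrays. Acute phase genes were high on WT 1 and WT 3, with sums of 38367 and 42156 against 25014 to 29207 on the others. The skeletal muscle markers summed to 1797 on WT 1 and 705 on K289R 3 against 161 to 241 elsewhere. Differences that moved most when these 4 arrays were left out are also given without them. The arrays measure whole liver, where fewer cells of a type and less RNA per cell cannot be told apart.

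None of the 29 interferon-induced genes passed an adjusted p of 0.05 in limma, where 0.572% of all genes did (114 of 19938; 0.481% were higher in K289R, 96 genes, and 0.0903% lower, 18 genes). The smallest adjusted p among them was 0.279, of Oas2. At an unadjusted p under 0.05 there were 6 of 29 (20.7%), beside 12% of all genes: Gbp3, Psmb9 and Rsad2 with higher means in K289R, and Oas2, Irf7 and Iigp1 with lower means. The median difference over the 29 was 0.06, beside -0.01 over all genes, and 17 differences were positive and 12 negative (20 positive with equal array medians). The differences ran from -0.34 (Irf7) to 0.39 (Rsad2). No 95% interval of a member reached beyond -0.60 (Irf7) or 0.77 (Rsad2), so a K289R level more than 1.71-fold above or 1.52-fold below WT lay outside the interval of every measured member. For no member were the 6 K289R values wholly above or wholly below the 6 WT values, which held for 1.24% of all genes.

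**Figure D2:**
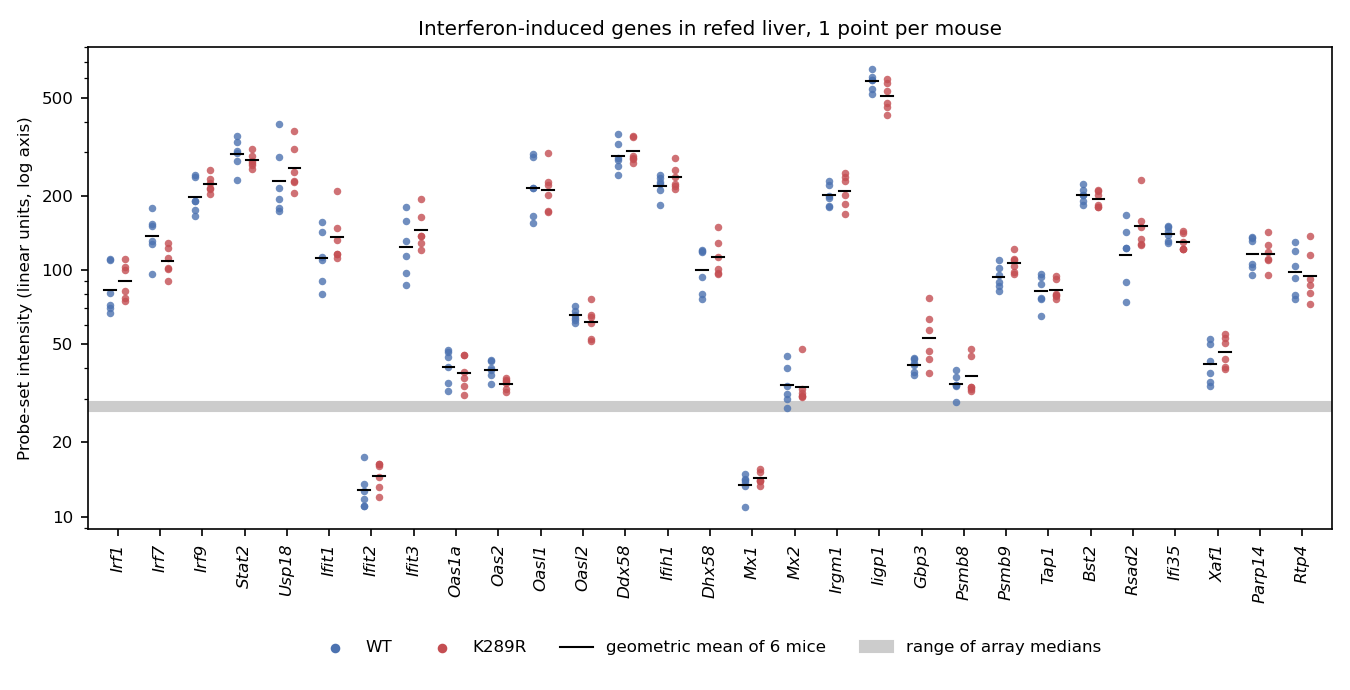
Probe-set intensity (log axis) of the 29 interferon-induced genes, 1 point per mouse, WT and K289R side by side, with a bar at the geometric mean of 6 mice and the range of array medians in grey. In every gene the clouds of the genotypes overlap, and Ifit2 and Mx1 lie under the grey band on all 12 arrays.

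Among the transcription factors, Irf7, the master inducer of type I interferon genes and itself strongly interferon-induced, showed the most negative difference of the group. Its intensity ran from 96.0 through a median of 141 to 178 in WT and from 90.7 through 107 to 128 in K289R. No K289R liver reached the WT median, yet the ranges overlapped over most of the K289R span. The difference was -0.34 (95% interval -0.60 to -0.07), 1.26-fold lower in K289R, with an adjusted p of 0.293. Irf9, the DNA-binding partner of Stat2, leaned the other way, from 165 through 190 to 242 in WT and from 204 through 221 to 255 in K289R, a difference of 0.18 (-0.03 to 0.38) with an adjusted p of 0.483. Stat2, its partner in the complex, spanned 233 to 350 in WT, which enclosed the whole K289R range of 257 to 311. Stat2 differed by -0.08 with an adjusted p of 0.728. Irf1, a factor induced above all by interferon-gamma, spanned 66.8 to 111 in WT mice and 74.6 to 111 in K289R mice, and differed by 0.12 (-0.18 to 0.42; adjusted p 0.756). A dimmer probe set of Irf1 gave 38.7 ± 3.87 in WT and 34.5 ± 4.73 in K289R livers (SD, n = 6 each), a difference of -0.17, so the 2 probe sets of this gene disagreed in sign. Usp18, which strips ISG15 from proteins and blocks type I receptor signalling, spanned 174 to 390 in WT and 205 to 367 in K289R, with medians of 205 and 239. The difference of 0.18 had an interval of -0.21 to 0.57, and it was -0.053 without WT 1, WT 3, K289R 1 and K289R 3.

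The Ifit genes, whose proteins bind viral RNA and halt its translation, had higher K289R medians, with overlapping ranges. Ifit1 ran from 80 through 111 to 157 in WT and from 112 through 125 to 209 in K289R, a difference of 0.27 (-0.09 to 0.63; adjusted p 0.532). The 209 belonged to K289R 3, the array with the most acinar transcript. Ifit3 ran from 86.8 through 123 to 180 in WT and from 121 through 137 to 194 in K289R, a difference of 0.23 with an adjusted p of 0.580. Ifit2, below the array median throughout, had medians of 12.3 in WT and 15.3 in K289R, and its highest value, 17.4, was in WT. Without WT 1, WT 3, K289R 1 and K289R 3 the differences of Ifit1 and Ifit3 were -0.016 and -0.045, so their positive sign rested on those arrays. With only WT 1 and WT 3 left out the differences were 0.071 and 0.015. With only K289R 1 and K289R 3 left out they were 0.19 and 0.17.

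The oligoadenylate synthetases, which sense double-stranded RNA and activate RNase L, and their relatives all had negative differences in the fit over 12 arrays. In other settings Oas1a was positive at 0.013 without WT 1 and WT 3, and Oasl1 at 0.0066 with equal array medians and at 0.060, 0.053, 0.030 and 0.027 without WT 2, WT 4, K289R 4 or K289R 5 alone. Oas2 ran from 34.5 through 39.7 to 43.1 in WT and from 32.01 through 35.2 to 36.4 in K289R. No K289R value reached the WT median and 2 were below every WT value, and the difference of -0.19 (-0.33 to -0.04) had the smallest adjusted p of the group, 0.279. Oas1a spanned 32.2 to 47.3 in WT and 31.1 to 45.3 in K289R, a difference of -0.09 with an adjusted p of 0.771. Oasl1, which lacks synthetase activity and restrains Irf7 translation, spanned 155 to 295 in WT and 171 to 299 in K289R, with a difference of -0.03 that was -0.39 without WT 1, WT 3, K289R 1 and K289R 3. Oasl2 spanned 61.1 to 71.6 in WT inside the wider K289R range of 51.7 to 76.4, with a difference of -0.09 and an adjusted p of 0.707. Probes for the Oas family can be shared by near-identical copies, so these levels are less certain than those of single-copy genes.

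The cytosolic RNA sensors overlapped between genotypes with nearly the same medians. Ddx58 (RIG-I) had medians of 282 in WT and 287 in K289R, with ranges of 242 to 357 and 271 to 351. Ifih1 (MDA5) had medians of 225 and 231, with ranges of 183 to 242 in WT and 212 to 285 in K289R. Dhx58 (LGP2), which tunes the other sensors, had medians of 106 and 107, with ranges of 76.1 to 121 in WT and 96.5 to 149 in K289R. The 3 differences were 0.06, 0.11 and 0.18, with adjusted p of 0.831, 0.606 and 0.614. Without WT 1, WT 3, K289R 1 and K289R 3 Ddx58 was at -0.067, Ifih1 at 0.012 and Dhx58 at -0.060.

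The dynamin-like Mx genes, whose products block virus entry and replication, had differences of 0.09 (Mx1) and -0.0185 (Mx2), with adjusted p of 0.665 and 0.966. Mx1 is defective in C57BL/6J mice, as in many inbred strains, and here it spanned 10.9 to 14.9 in WT and 13.3 to 15.7 in K289R. Mx2 ran from 27.6 through 32.7 to 44.7 in WT and from 30.7 through 31.3 to 48.0 in K289R, where the top value was again K289R 3.

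The interferon-inducible GTPases, which attack the vacuoles of intracellular pathogens, did not move together. Gbp3, a guanylate-binding protein, ran from 37.7 through 41.6 to 44.2 in WT and from 38.1 through 52.2 to 76.7 in K289R. K289R values spread much more widely, and 4 of the 6 were above every WT liver, with K289R 5, 3 and 4 the highest. The difference was 0.36 (0.08 to 0.64; adjusted p 0.287). Iigp1, an effector that coats parasite vacuoles, leaned down, from 517 through 591 to 654 in WT and from 427 through 503 to 596 in K289R. Its difference was -0.20 (-0.39 to -0.01) with an adjusted p of 0.388. Irgm1, the regulator that keeps such effectors off the cell's own membranes, spanned 179 to 229 in WT inside the K289R range of 170 to 249, with a difference of 0.06 and an adjusted p of 0.827.

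Psmb9 and Psmb8 replace constitutive catalytic subunits in the immunoproteasome, and Tap1 carries the resulting peptides into the endoplasmic reticulum for MHC class I. Psmb9 ran from 81.8 through 92.3 to 110 in WT and from 96.3 through 107 to 121 in K289R, a difference of 0.18 (0.01 to 0.36) with an adjusted p of 0.394. Psmb8 had nearly equal medians of 34.1 and 33.6, and its K289R range of 32.3 to 47.8 was stretched by K289R 5 at 47.8 and K289R 3 at 44.8. Tap1 spanned 64.9 to 96.1 in WT around the K289R range of 76.3 to 94.4. The differences of Psmb8 and Tap1 were 0.10 and 0.02, with adjusted p of 0.716 and 0.946. The constitutive subunits Psmb5, Psmb6 and Psmb7 differed by 0.05, -0.05 and 0.09, with adjusted p of 0.816, 0.787 and 0.603.

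Of the remaining antiviral effectors, Rsad2 (viperin), which makes a chain-terminating nucleotide, had the most positive difference of the group. It ran from 74.1 through 123 to 167 in WT and from 126 through 142 to 233 in K289R, 1.31-fold higher in K289R. Every K289R liver exceeded the WT median, while 5 of the 6 lay within the WT range. The log2 difference of 0.39 had an interval of 0.00 to 0.77 and an adjusted p of 0.415, and it was 0.02 without WT 1, WT 3, K289R 1 and K289R 3. Bst2 (tetherin), which holds budding virions at the cell surface, spanned 183 to 223 in WT and 180 to 211 in K289R, a difference of -0.06. Xaf1, a partner of the apoptosis inhibitor XIAP, spanned 33.9 to 52.5 in WT and 39.9 to 55.2 in K289R, a difference of 0.17 with an adjusted p of 0.578. Ifi35, which forms a complex with Nmi, spanned 128 to 151 in WT and 121 to 144 in K289R, a difference of -0.11 with an adjusted p of 0.531. Parp14, an ADP-ribosyltransferase, spanned 95.26 to 136 in WT and 95.03 to 142 in K289R, a difference of -0.0018. Rtp4, a chaperone of membrane receptors, spanned 76.3 to 131 in WT and 72.6 to 137 in K289R, a difference of -0.05. All these ranges overlapped, although 3 K289R values of Ifi35 and 2 of Bst2 lay below every WT value and 2 of Xaf1 above every WT value. Without WT 1, WT 3, K289R 1 and K289R 3 the difference of Rtp4 was -0.34 and that of Xaf1 0.030.

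**Figure D3:**
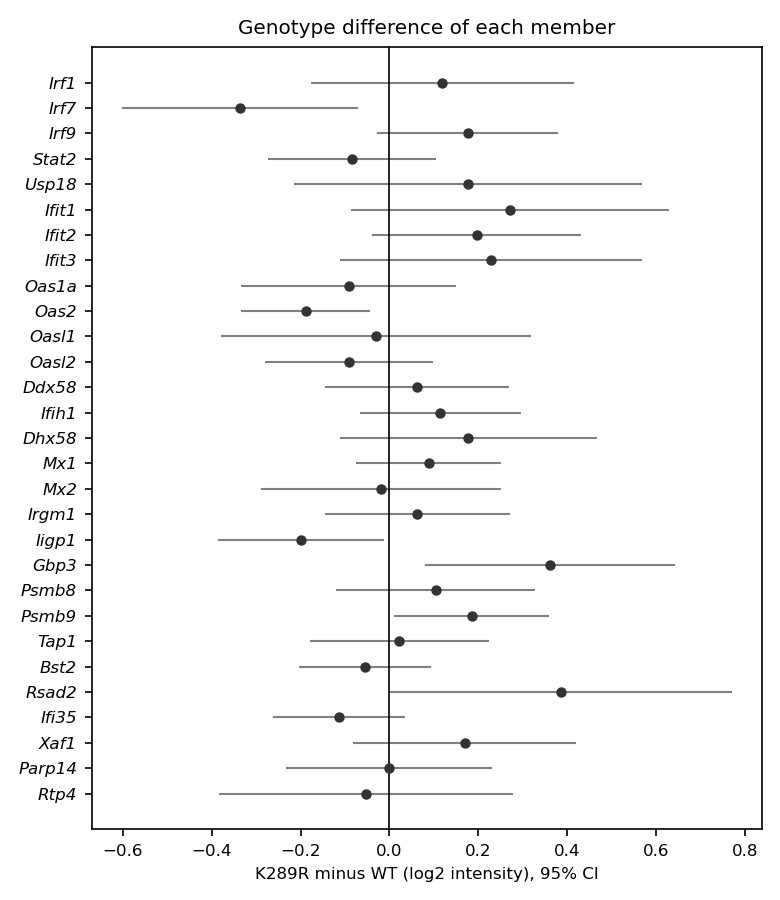
K289R minus WT difference of each measured interferon-induced gene (log2 intensity, point) with its 95% interval (bar), 6 mice per genotype. The points run from -0.34 (Irf7) to 0.39 (Rsad2), and 6 intervals exclude 0 before adjustment over all genes.

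The members varied more between mice of 1 genotype than genes in general. Their median within-group SD was 0.214 on the log2 scale, beside 0.148 over all genes. Among genes above the array median on all 12 arrays, the values were 0.210 for 26 members and 0.136 for 10095 genes. Many members deviated in the same direction on the same livers, and the shared part of the spread was not computed. K289R 3 had the highest value of its group in 18 of 29 members, where it did so in 14.6% of all genes, and it lay above the group mean in 27. K289R 1, 4 and 2 lay below the group mean in 26, 25 and 22 members. Of all genes, 50.9% lay above the group mean on K289R 3, and 43.2%, 53.0% and 52.9% on K289R 1, 4 and 2. In WT livers, WT 2 and WT 4 lay above the mean in 25 and 21 members and WT 3 and WT 1 below it in 24 and 20. Of all genes, 55.1% and 54.2% lay above the mean on WT 2 and WT 4, and 49.8% and 47.9% on WT 3 and WT 1. Oas1a, Stat2, Iigp1 and Mx1 went the other way, above the WT mean on both WT 1 and WT 3. In 9 members WT 2 and WT 4 were the highest WT values, WT 1 and WT 3 the lowest, and K289R 3 the highest K289R value: Ifit1, Oasl1, Usp18, Rsad2, Ifi35, Ddx58, Tap1, Xaf1 and Rtp4. The same order held in 0.336% of all genes. This order was chosen for description after the values were seen. The low WT livers are the same mice that had the high acute phase sums, and the high K289R liver has the highest acinar sum. K289R 1, which also carried acinar transcripts, was on the low side of its group. The part of these other transcripts in the spread was not tested. Without those 4 arrays the median difference of the 29 members was -0.03, with 13 positive, and again none passed.

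**Figure D4:**
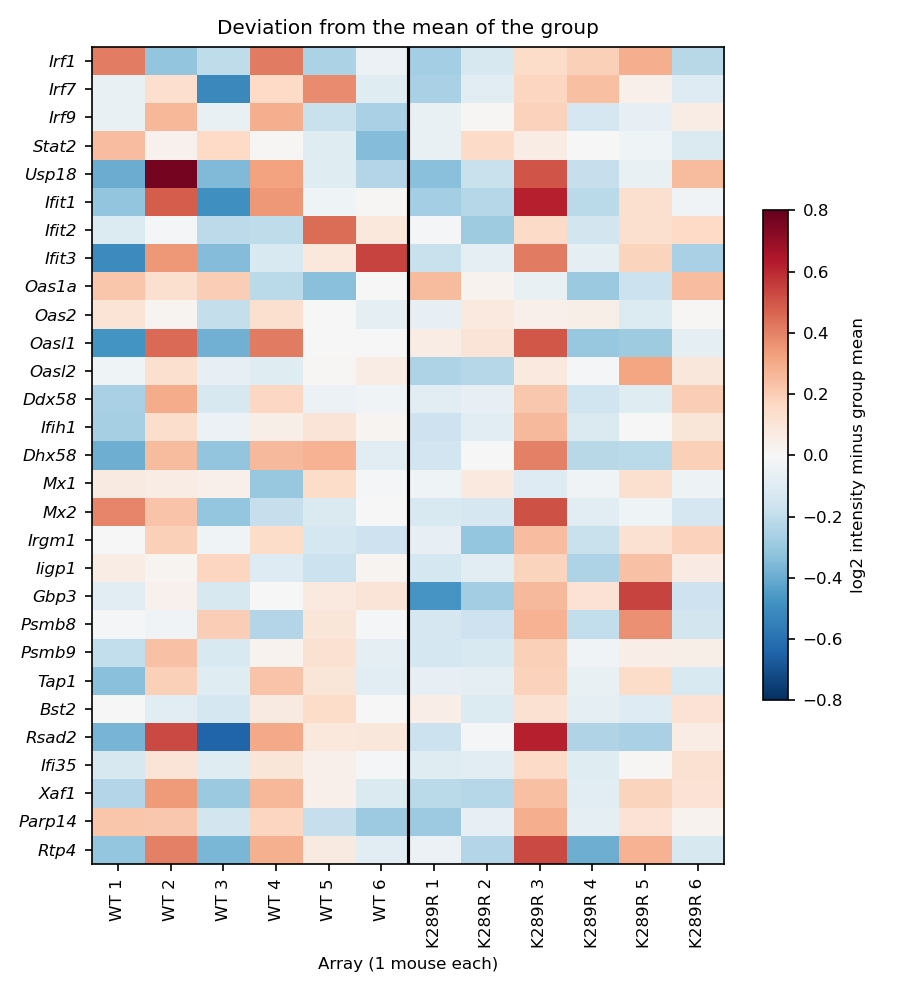
Deviation of each interferon-induced gene from the mean of its own genotype (log2 intensity, colour scale) in each of the 12 livers. WT 2 and WT 4 are mostly above and WT 1 and WT 3 mostly below the WT mean, and K289R 3 lies above the K289R mean in 27 of 29 genes.

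Co-variation across mice was examined in 4 chosen pairs, with each group mean removed and permutation within groups (100000 resamples, two-sided, 12 mice). Ifit1 and Ifit3, which carry similar promoter matches, gave Pearson's r of 0.69 (permutation p = 0.0229, adjusted over the 4 pairs 0.0918) and Spearman's rho of 0.73 (permutation p = 0.0163, adjusted 0.0653). The r was 0.61 within WT and 0.87 within K289R, and 0.49 without the 2 livers farthest from the Ifit1 median. Irf7 and Ifit1 gave r of 0.59 (permutation p = 0.0569, adjusted 0.114) and rho of 0.51 (permutation p = 0.115, adjusted 0.231), with r of 0.67 in WT, 0.49 in K289R and 0.60 without the 2 farthest livers. Without WT 1, WT 3, K289R 1 and K289R 3 the r values of these pairs over the other 8 livers were 0.00 and -0.09. The part of the smaller number of livers in this drop was not tested. Psmb8 and Tap1, neighbouring genes, gave r of 0.26 (permutation p = 0.377, adjusted 0.503) and rho of -0.02 (permutation p = 0.955, adjusted 0.955). Their r was -0.40 within WT, 0.96 within K289R and -0.15 without the 2 farthest livers. Irf7 and Psmb8 gave r of -0.04 (permutation p = 0.898, adjusted 0.898) and rho of -0.035 (permutation p = 0.923, adjusted 0.955), with -0.46 in WT, 0.35 in K289R and 0.16 without the 2 farthest livers. None of the 4 pairs passed after adjustment on the values as deposited. With equal array medians Ifit1 and Ifit3 passed by Spearman's rho (0.78, permutation p adjusted over the 4 pairs 0.0343) and not by Pearson's r (0.69, adjusted 0.0866).

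**Figure D5:**
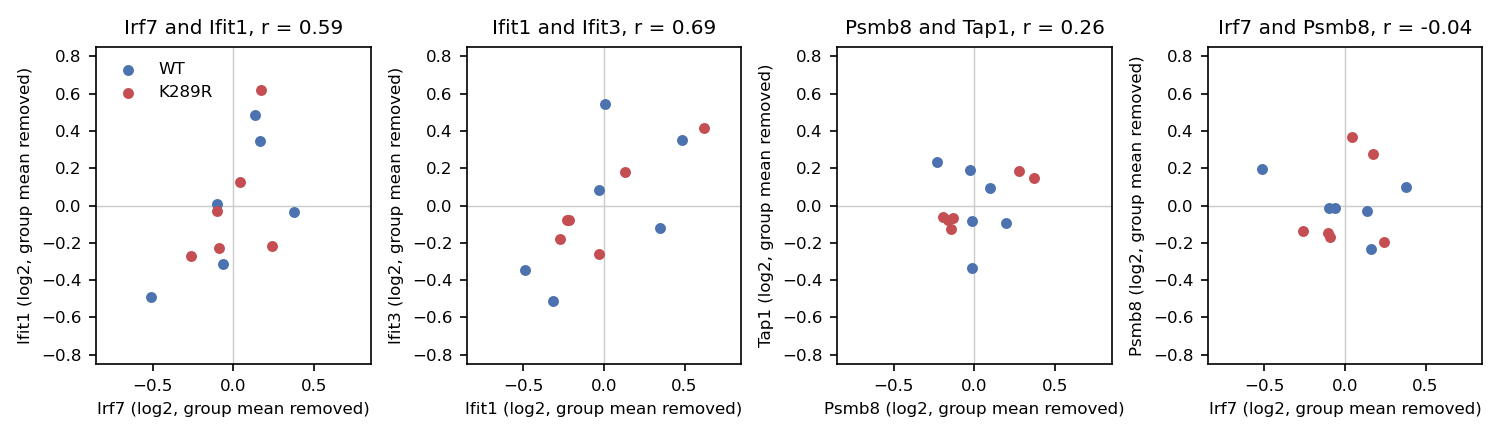
Log2 intensities of 4 gene pairs with each genotype's mean removed, 1 point per mouse, WT and K289R in separate colours. Ifit1 and Ifit3 lie closest to a line (r = 0.69), and Irf7 and Psmb8 show none (r = -0.04).

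Upstream of the members, none of the 7 interferon genes measured passed, with a median difference of -0.06, and 5 of them lay below the array median on all arrays. Interferon-beta (Ifnb1) was at 10.4 ± 1.29 in WT and 10.2 ± 0.774 in K289R livers (SD, n = 6 each). Interferon-gamma (Ifng) spanned 21.2 to 27.1 in WT and 21.6 to 24.6 in K289R, on each of the 12 arrays below the median of that array. None of the 9 receptor chains and JAK-STAT transducers measured passed (median 0.06). Ifnar1, the type I receptor chain, differed by -0.17 and Ifngr1, its interferon-gamma counterpart, by 0.14, with adjusted p of 0.440 and 0.508.

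Of the 17 nucleic acid sensors, adaptors and interferon-inducing factors measured, 1 was lower in K289R and none higher, with a median of -0.03. The 1 was Irf5, a factor that acts downstream of Toll-like receptors in macrophages. Irf5 was at 76.4 ± 8.37 in WT and 56.6 ± 5.35 in K289R livers (SD, n = 6 each), with ranges of 64.7 to 90.7 and 46.9 to 62.1 that did not overlap. It fell 1.35-fold, a log2 difference of -0.43 (-0.61 to -0.25) with an adjusted p of 0.0245. The call was lost without WT 3, WT 4, K289R 3 or K289R 4 alone (adjusted p 0.0558, 0.0590, 0.0585 and 0.0565), with equal array medians (0.0595) and without all 4 acute phase and acinar arrays (0.262). The difference itself moved little, to -0.38, -0.43, -0.43 and -0.43 without those single arrays, -0.40 with equal array medians and -0.39 without the 4 arrays. The summed Kupffer cell and macrophage markers spanned 1070 to 1730 in WT and 1178 to 2237 in K289R livers, highest on K289R 4, and none of these 11 genes passed. Adgre1 (F4/80) differed by 0.10 and Clec4f by 0.09, with adjusted p of 0.866 and 0.808. Their part in the Irf5 result was not tested.

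Of 9 negative regulators of interferon signalling, 1 was lower in K289R and none higher (median 0.01). This was Socs3, an inhibitor of JAK kinases that is induced mainly by interleukin-6 signalling, at 59.1 ± 7.77 in WT and 41.4 ± 4.74 in K289R (SD over 6 mice per genotype). It fell by 0.51 on the log2 scale with an adjusted p of 0.0184. The call was lost without WT 3 (difference -0.49, adjusted p 0.0531) and without WT 1 and WT 3 (-0.41, adjusted p 0.102), where the difference kept most of its size. Socs3 has 2 probe sets, and the call was also lost with their mean and in other settings given at the end. Over all settings the Socs3 difference ran from -0.55 to -0.37. All 18 acute phase genes had negative differences (median -0.25), beside 10761 of all 19938 genes, and none passed. Their mean log2 level was 10.23 on WT 1 and 10.34 on WT 3. It was 8.765 to 9.001 on the other WT livers and 8.737 to 9.429 in K289R. The part of WT 1 and WT 3 in these negative signs was not tested.

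A wider list of 46 further interferon-induced genes gave no call: of 41 measured, none passed, 6 (14.6%) had an unadjusted p under 0.05, near the 12% of all genes, and the median was -0.0025. Its smallest adjusted p, 0.197, belonged to Helz2, a helicase with a difference of -0.24, and Oas3, Trim25 and Lgals3bp followed with -0.20, 0.20 and -0.19. Oas3 lay below the array median on all 12 arrays, so its difference rests on low signal. None of the 9 genes of MHC class I presentation measured passed (median -0.05). B2m, the light chain of MHC class I, was at 3889 ± 231 in WT and 3913 ± 227 in K289R livers (SD, n = 6 each), and Erap1, the peptide-trimming protease, differed by 0.23 with an adjusted p of 0.346.

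MHC class II genes, which antigen-presenting cells express and interferon-gamma induces through Ciita, had higher K289R means in 5 of 6, with a median difference of 0.43, and none passed. At an unadjusted p under 0.05 in limma there were 4 of 6 (66.7%), all higher in K289R, beside 12% of all genes. These were H2-Aa, H2-Ab1, Cd74 and H2-Eb1, the last with a difference of 0.36 and an adjusted p of 0.375. H2-Aa ran from 66.1 through 92.2 to 97.0 in WT and from 78.8 through 148 to 248 in K289R, a difference of 0.72 (0.23 to 1.20; adjusted p 0.215). H2-Ab1 ran from 61.1 through 73.5 to 95.02 in WT and from 72.8 through 109 to 230 in K289R, a difference of 0.69 (0.17 to 1.20; adjusted p 0.268). The class II sum was 332 to 501 in WT, and 915, 963 and 635 on K289R 4, 5 and 3, against 384 to 498 on the other K289R livers. The same K289R livers had the highest Gbp3 values. Cd74, the class II chaperone, spanned 94.1 to 178 in WT and 111 to 330 in K289R, a difference of 0.50 with an adjusted p of 0.409. The summed Kupffer cell and macrophage markers were at 2237, 1546 and 1535 on K289R 4, 5 and 3. They were at 1178 to 1264 on the other K289R livers and at 1070 to 1730 in WT. No gene passed in the marker lists of neutrophils, T and NK cells, B cells, plasmacytoid dendritic cells or conventional dendritic cells. Of their measured markers 7 of 7, 7 of 10, 3 of 5, 2 of 4 and 3 of 5 lay below the array median on all 12 arrays. The part of these cells, or of Kupffer cells and macrophages, in the class II values was not tested.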

How the data were processed

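Liver RNA of 12 mice was hybridised to 1-colour Affymetrix arrays. The deposited table holds linear intensities that the authors made with Affymetrix Expression Console, per the submitters' processing notes; no source used here names the summarisation method, background correction or normalization. Of 35556 rows, 21789 carry 1 gene symbol in the platform annotation, 1621 several and 12146 are not listed; 21698 were matched to current RefSeq symbols by gene ID. Rows with several symbols were not named. The brightest probe set stood for a gene (999 genes had more than 1). Log2 values of all 12 arrays were fitted with limma 3.58.1 in R 4.3.3 (lmFit, eBayes, no filter or pseudocount), with Benjamini-Hochberg adjustment over 19938 genes; the test was run on simulated data. Replicate numbers name different mice and were not used as a block. The members, the pathway and marker lists and the pairs were chosen with earlier results of these data known. Named beside the members were Nr5a2, the genes of each list with the smallest p (up to 4, chosen from for the text), those that passed, and preset genes. Chosen pairs with a member not measured (Irf7 with Isg15, Igtp with Irgm1, Irf1 with Gbp2) were not run. The number of arrays limits the precision. Separate mice are the replicates, as the labels number them.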

Additional observations from a re-analysis of the deposited data

Results flagged for a closer look

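In 108 groups of 6 values, 7 held a value whose gap to its nearest neighbour exceeded Dixon's 95% limit, where chance gives about 1 in 20. Of these, 3 were in the 58 groups of members, and all 3 were the highest value of K289R 3: Ifit1 at 208.5, Rsad2 at 232.5 and Mx2 at 47.98. The others were Ifnb1 at 12.85 in WT 2, Erap1 at 210.2 in K289R 5, Adgre1 at 166.2 in K289R 4, and Tapbpl, an MHC class I peptide editor, at a low of 69.5 in K289R 4. Adgre1 was high on the liver with the highest Kupffer cell and macrophage sum, 2237.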

How the results depend on the processing

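In all 24 other settings none of the 29 members passed, and the smallest adjusted p of a member was 0.0953 (Irf7 without WT 1 and 3); 3 to 8 members had an unadjusted p under 0.05. Of 693 member values in other settings, 45 changed sign, in 13 members; the other 16 members kept their sign throughout. The number of genes called was 61 with all rows tested, 75 without K289R 1 and 3, 65 without WT 1 and 3 and K289R 1 and 3, and 81 to 159 when single arrays were left out.

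Signs changed as follows, and the cause was not tested. Without WT 1 and 3 the differences were 0.016 (Stat2), -0.012 (Usp18), 0.013 (Oas1a), -0.036 (Ddx58), 0.0021 (Mx2), -0.086 (Tap1), 0.018 (Parp14), -0.0094 (B2m), -0.027 (Adgre1) and -0.022 (Clec4f). Without WT 1 and 3 and K289R 1 and 3 they were 0.016 (Stat2), -0.053 (Usp18), -0.016 (Ifit1), -0.045 (Ifit3), -0.067 (Ddx58), -0.060 (Dhx58), -0.12 (Tap1), 0.018 (Parp14), -0.023 (B2m) and -0.0003 (Clec4f), and the pairs gave r of -0.095 (Irf7 and Ifit1) and 0.11 (Irf7 and Psmb8). With equal array medians they were 0.0066 (Oasl1), 0.019 (Mx2), 0.036 (Parp14) and 0.012 (Ifnb1), and r of Irf7 and Psmb8 was 0.023. Quantile normalization gave 0.0044 (Mx2), -0.0051 (Tap1) and 0.0034 (Ifnb1); array weights gave 0.023 (Mx2), -0.0073 (Tap1) and -0.0006 (B2m). Without K289R 1 and 3 Tap1 was at -0.0074 and B2m at -0.0039, and the mean of probe sets gave -0.027 for Irf1. Leaving out single arrays gave -0.13 to 0.060 (Oasl1), -0.12 to 0.060 (Mx2), -0.045 to 0.068 (Tap1), -0.060 to 0.056 (Parp14), -0.16 to 0.028 (Rtp4), -0.061 to 0.038 (Ifnb1), -0.018 to 0.040 (B2m), -0.10 to 0.21 (Adgre1) and -0.0043 to 0.16 (Clec4f).

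Same-numbered mice share only a number: their deviations correlated with r of -0.23 to 0.23. With the replicate block 111 genes and 0 members passed, 4 members had an unadjusted p under 0.05, and Irf5 had an adjusted p of 0.0754. Irf5 also lost its call with equal array medians (0.0595), with all rows (0.0769), and without K289R 1 and 3 (0.107) or WT 1 and 3 (0.102). Socs3 lost its call with the mean of probe sets (0.0575), all rows (0.0705), without K289R 1 and 3 (0.0730) and without all 4 arrays (0.219). Signal below the array median on all 12 arrays limits Ifit2, Mx1, Ifnb1, Ifng and Oas3.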
